A study of Mus musculus with 9 samples.

Results

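The 2 metallothionein genes Mt1 and Mt2, the zinc-sensing transcription factor gene Mtf1 and the zinc exporter gene Slc30a1 were followed in D3-pOct4 mouse embryonic stem cells. Every probe set whose platform annotation names 1 of these 4 genes and no other was taken, out of 18193 genes named in this way. This gave 10 of the 45101 probe sets on the Affymetrix Mouse Genome 430 2.0 array, namely 2 for Mt1, 1 for Mt2, 5 for Mtf1 and 2 for Slc30a1. A probe set is a group of short probes on the array that are read together as 1 signal. The cells were grown for 7 days in 3 conditions, all in medium with fetal bovine serum. In the LIF group leukemia inhibitory factor, the cytokine that keeps these cells undifferentiated, was present at 1000 U/ml. The no LIF group was grown without it, and the donor group was grown without it and with DETA/NO, a slow donor of nitric oxide, at 2 µM. There are 3 arrays a group, replicates 1, 2 and 3, from passages 31, 33 and 34 of this 1 line. No label says whether the cultures were otherwise separate, and the p-values given cover only the spread among the 9 arrays, which may be technical.

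Metallothioneins are small, cysteine-rich proteins that hold zinc and copper ions in clusters of thiol groups. When free zinc rises, MTF1 binds metal response elements, short DNA motifs, and raises transcription of Mt1, Mt2 and Slc30a1, whose product ZnT1 moves zinc out of the cell. Nitric oxide can react with the thiols of metallothionein and release zinc from it, which is why these genes are of interest beside a nitric oxide donor. Serum also carries zinc and glucocorticoids, both known inducers of Mt1 and Mt2.

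Signals are linear intensities that the submitters scaled to the same trimmed mean of 100 on every array. The median signal of an array was 20.8 to 23.3 on LIF replicate 1 and donor replicates 1 and 2, called the brighter arrays here, and 13.9 to 17.8 on the other 6. Brightness refers to this median alone. The trimmed mean is the same on all arrays, and the level of high signals on the brighter arrays overlapped with that on the others. Socs3, a target of LIF signalling that checks the labels, read 3213, 282 and 1794 in LIF replicates 1 to 3 and 102, 3054 and 330 in no LIF replicates 1 to 3. By this probe set of Socs3, the arrays labelled LIF replicate 2 and no LIF replicate 2 thus go against their labels. Socs3 had 2 other tested probe sets, which are not given here. Klf4, another LIF target, read 2482, 1062 and 1863 in LIF replicates 1 to 3 and 197, 2542 and 698 in no LIF replicates 1 to 3. For Klf4, LIF replicate 2 thus lay above no LIF replicates 1 and 3. Whether the 2 arrays were exchanged was not tested. The array labelled no LIF replicate 1 and donor replicate 3 were more alike than any other of the 36 pairs (r = 0.972 over the probe sets tested, next highest 0.957) and are called the alike pair. All 10 embryonic stem cell markers, Pou5f1 and Nanog among them, lay at or above the array median on all 9 arrays. Of 11 visceral endoderm markers read, 3 did so, among them Amn and Cubn with signals up to 466 and 687. Another 4 lay below the median on every array. The signals of Afp and Apoa1 stayed at or under 13.7, and those of Ttr at or under 44.2. As in any bulk sample, fewer cells of a type and less RNA per cell cannot be told apart.

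The promoters of Mt1, Mt2 and Slc30a1 are shown because the metal response elements that tie these genes to MTF1 lie there. Sequences are from RefSeq on mouse build GRCm38.p6, which held all 4 genes, and all 4 lie on the plus strand. Mt2 (chr8:94172618-94173567) and Mt1 (chr8:94178883-94180327) are neighbours, with 5315 bases between the end of Mt2 and the first base of Mt1. Mtf1 spans chr4:124802549-124849800 and Slc30a1 spans chr1:191906697-191913248. Each line below gives the 250 bases before the start site, 5′ to 3′, from chr8:94178839-94179088 for Mt1, chr8:94172368-94172617 for Mt2 and chr1:191906531-191906780 for Slc30a1. The annotated start sites used for Mt1 and Slc30a1 lie inside the gene spans given. Most of the Mt1 window, from chr8:94178883 on, and the end of the Slc30a1 window, from chr1:191906697 on, thus overlap the span. Capitals mark the core of a metal response element, searched as TGCACNC or TGCGCNC on both strands, and none of the matches overlapped another.

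Mt1 promoter: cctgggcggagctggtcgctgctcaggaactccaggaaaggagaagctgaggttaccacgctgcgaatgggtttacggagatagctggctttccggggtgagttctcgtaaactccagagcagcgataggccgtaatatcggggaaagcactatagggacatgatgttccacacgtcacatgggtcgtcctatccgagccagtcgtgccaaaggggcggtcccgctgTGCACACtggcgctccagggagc

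Mt2 promoter: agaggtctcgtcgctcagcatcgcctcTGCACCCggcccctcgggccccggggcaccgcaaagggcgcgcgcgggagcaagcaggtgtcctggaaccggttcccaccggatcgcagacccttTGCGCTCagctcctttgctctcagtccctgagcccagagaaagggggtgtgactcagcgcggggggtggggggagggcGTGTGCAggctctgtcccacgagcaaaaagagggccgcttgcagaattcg

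Slc30a1 promoter: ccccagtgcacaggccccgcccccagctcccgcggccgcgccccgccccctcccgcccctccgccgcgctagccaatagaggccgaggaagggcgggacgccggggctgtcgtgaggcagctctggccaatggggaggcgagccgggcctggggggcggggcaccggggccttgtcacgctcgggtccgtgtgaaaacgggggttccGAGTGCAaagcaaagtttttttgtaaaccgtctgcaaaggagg

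Mt2 held 3 cores, at positions -223 to -217, -128 to -122 and -50 to -44 from the start site. Mt1 held 1 core, at -23 to -17, and Slc30a1 held 1, at -43 to -37, read on the minus strand. The 250 bases before Mtf1 held 0. Among 32851 RefSeq promoters of the same length, of 27025 genes, 21.4% held at least 1 core and 0.770% held at least 3. A further core or 2 followed the annotated start site used for these 3 genes. They are shown in the stretches below, from chr8:94179089-94179118 for Mt1, chr8:94172618-94172647 for Mt2 and chr1:191906800-191906829 for Slc30a1.

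Mt1 after the start: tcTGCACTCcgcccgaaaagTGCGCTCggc

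Mt2 after the start: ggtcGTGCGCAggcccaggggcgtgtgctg

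Slc30a1 after the start: gcctccgggccGAGCGCAgtcgccgcggac

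Counting the 50 bases after the start as well, Mt2 held 4 cores, Mt1 held 3, Slc30a1 held 2 and Mtf1 held 0, and 0.295% of promoters held at least 4, 1.31% at least 3 and 6.14% at least 2. The core of the antioxidant response element, TGACNNNGC, which binds the oxidative stress factor NRF2, had 1 match in the 250 bases of Mt2 and 1 in those of Slc30a1, against 10.2% of promoters with at least 1. The STAT site TTCNNNGAA, which the LIF effector STAT3 can bind, had 0 matches in the 4 promoters, against 7.02% of promoters with at least 1. A match describes these letters and shows no binding. Starts of these genes other than the annotated ones used, and bases further after them, were not searched. The counts, and whether a core lies before or after the start, hold for the annotated starts only.

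Mt1 encodes metallothionein 1, and it was read with a high signal in all 3 groups without a difference between them that passed the test. Its probe set 1422557_s_at, of a kind that can match more than 1 transcript, read 1412, 3377 and 2439 in LIF replicates 1 to 3. It read 2228, 2381 and 5577 in no LIF replicates 1 to 3, and 1148, 2492 and 2137 in donor replicates 1 to 3. The highest signal, on no LIF replicate 3, was 4.86 times the lowest, on donor replicate 1, and the 3 groups overlapped. Group means were 3395 ± 1891 without LIF, 2410 ± 983 with LIF and 1925 ± 696 with the donor (SD, n = 3), and neighbours in that order differed by less than the larger SD of the pair. The other Mt1 probe set, 1451612_at, was dim, at 1.42 to 69.8 over the 9 arrays, and lay below the array median on 2 of them. Its highest and its lowest value were both in the donor group, on replicates 1 and 3.

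Mt2 encodes metallothionein 2, which binds the same metals, and was read by 1 probe set, 1428942_at. Its signal was 2070, 4609 and 3497 in LIF replicates 1 to 3, and 3107, 3708 and 5796 in no LIF replicates 1 to 3. With the donor it was 2470, 2036 and 2864. All 3 donor arrays lay below all 3 no LIF arrays, and both groups overlapped with LIF. Means were 4203 ± 1411 without LIF, 3392 ± 1273 with LIF and 2457 ± 414 with the donor (SD, n = 3), where neighbours again differed by less than the larger SD of the pair. The same signals also parted the arrays by brightness. The 3 brighter arrays read 2036 to 2470 and the other 6 read 2864 to 5796, with no overlap, which was so for 7.27% of the 29811 probe sets tested in the lower direction and 14.6% in the higher. In the donor group 2 of 3 arrays are brighter and in the no LIF group 0 are.

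**Figure D1:**
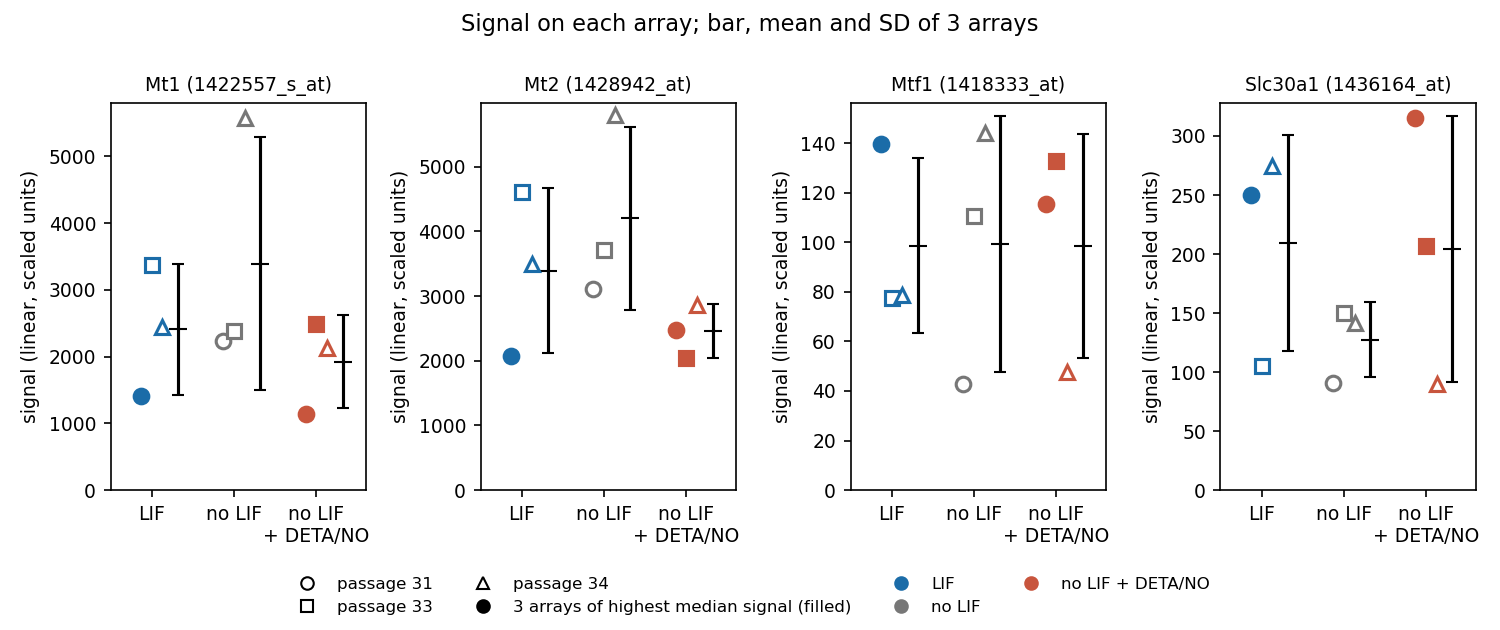
Signal (linear, scaled units) of the brightest probe set of Mt1, Mt2, Mtf1 and Slc30a1 on each of the 9 arrays, by group, with the mean and SD of 3 arrays beside the points; marker shape gives the passage and filled markers are the 3 brighter arrays. The 3 donor arrays of Mt2 lie at 2036 to 2864, below the no LIF arrays at 3107 to 5796, while the groups overlap for the other genes.

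Mt1 and Mt2 signals varied together over the arrays. Pearson's r of their log2(signal + 3) was 0.81 over 9 arrays (exact permutation p = 0.00766, adjusted over the 6 pairs of the 4 genes 0.046). The permutations paid no regard to group or passage, and both genes had the same order of group means. The Mt1 probe set can also match more than 1 transcript. Spearman's rho was 0.62 (exact permutation p = 0.0857, adjusted 0.398). Without the 2 arrays farthest from the median of Mt1, r was 0.71. Within the 6 arrays that are not brighter, r was 0.96 (exact permutation p = 0.00278, adjusted 0.0167), and the brighter arrays are too few for a value of their own. Donor replicate 2 stood off the line, with Mt1 at 2492 and the lowest Mt2 of all arrays at 2036. Mt2 was still only 216th of 6659 genes by correlation with Mt1, and Mt1 was 105th for Mt2, so that many genes followed either of them more closely.

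Mtf1 encodes the zinc finger factor that activates both metallothionein genes, and the groups overlapped in its brightest probe set. Probe set 1418333_at read 139.6, 77.5 and 78.8 in LIF replicates 1 to 3, 42.9, 110.7 and 144.0 in no LIF replicates 1 to 3, and 115.4, 132.9 and 47.5 in donor replicates 1 to 3. Means were 98.6 ± 35.5, 99.2 ± 51.5 and 98.6 ± 45.1 (SD, n = 3), and the lowest values were on both arrays of the alike pair. Probe set 1428979_at behaved otherwise. It read 50.4, 49.6 and 58.4 on the LIF arrays, 37.9, 30.6 and 17.4 on the no LIF arrays and 44.2, 43.7 and 42.1 on the donor arrays, in replicates 1 to 3. No group overlapped another, with LIF highest, no LIF lowest and the donor between them (means 52.8 ± 4.84, 28.6 ± 10.4 and 43.3 ± 1.08; SD, n = 3). Probe set 1429170_a_at read 15.2 to 37.3 with all groups overlapping. The remaining 2 probe sets of Mtf1, 1452990_at and 1440414_at, read 0.462 to 11.0 and 0.298 to 2.25, and were too dim to be tested. Of the 10 probe sets of the 4 genes, 8 were tested.

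Slc30a1 encodes ZnT1, the exporter at the cell surface that lowers cytosolic zinc. Its probe set 1436164_at read 249.9, 105.0 and 274.2 in LIF replicates 1 to 3, 90.9, 149.7 and 141.4 in no LIF replicates 1 to 3, and 315.0, 207.1 and 90.1 in donor replicates 1 to 3. Means were 209.7 ± 91.5 with LIF, 204.0 ± 112.5 with the donor and 127.3 ± 31.8 without LIF (SD, n = 3), with overlap of all groups. The other probe set, 1422786_at, took the same order of means, at 110.7 ± 44.2, 93.9 ± 26.3 and 71.3 ± 10.8 (SD, n = 3). Slc30a1 followed the brightness of the array. With the array's median log2 signal, r was 0.88 over 9 arrays (exact permutation p = 0.00356, adjusted over the 4 genes 0.0142) and rho was 0.87 (exact permutation p = 0.00451, adjusted 0.018). Without the 2 arrays farthest from the middle r was 0.82, and within the 6 arrays that are not brighter it was 0.95 (exact permutation p = 0.00694, adjusted 0.0278). For Mt1, Mt2 and Mtf1 the values over 9 arrays were -0.63, -0.71 and 0.66 (exact permutation p = 0.0665, 0.0366 and 0.0559, adjusted 0.0665 for each). Their rho values were -0.40, -0.60 and 0.70 (exact permutation p = 0.291, 0.0968 and 0.0433, adjusted 0.291, 0.129 and 0.0865). Without the 2 farthest arrays r was -0.09, -0.54 and 0.60, and within the 6 other arrays it was 0.05, 0.13 and 0.48, so that the relation of Mt1 and Mt2 with brightness rests on the brighter arrays.

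The other pairs of the 4 genes did not pass the correction. Mtf1 and Slc30a1 had r = 0.66 (exact permutation p = 0.0567, adjusted 0.17), rho 0.55 (exact permutation p = 0.133), and r fell to 0.17 without the 2 farthest arrays. Slc30a1 had r = -0.49 with Mt1 and -0.44 with Mt2, and Mtf1 had r = 0.04 with Mt1 and -0.07 with Mt2, with exact permutation p-values of 0.189 to 0.908. Within the 6 arrays that are not brighter, Mtf1 had r = 0.74 with Mt1 (exact permutation p = 0.0972, adjusted 0.194) and 0.83 with Mt2 (exact permutation p = 0.0431, adjusted 0.129), while Slc30a1 had 0.09 and 0.19. The exporter is a target of the same factor as the metallothionein genes, and no shared rise of its signal with theirs was seen over these arrays.

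**Figure D2:**
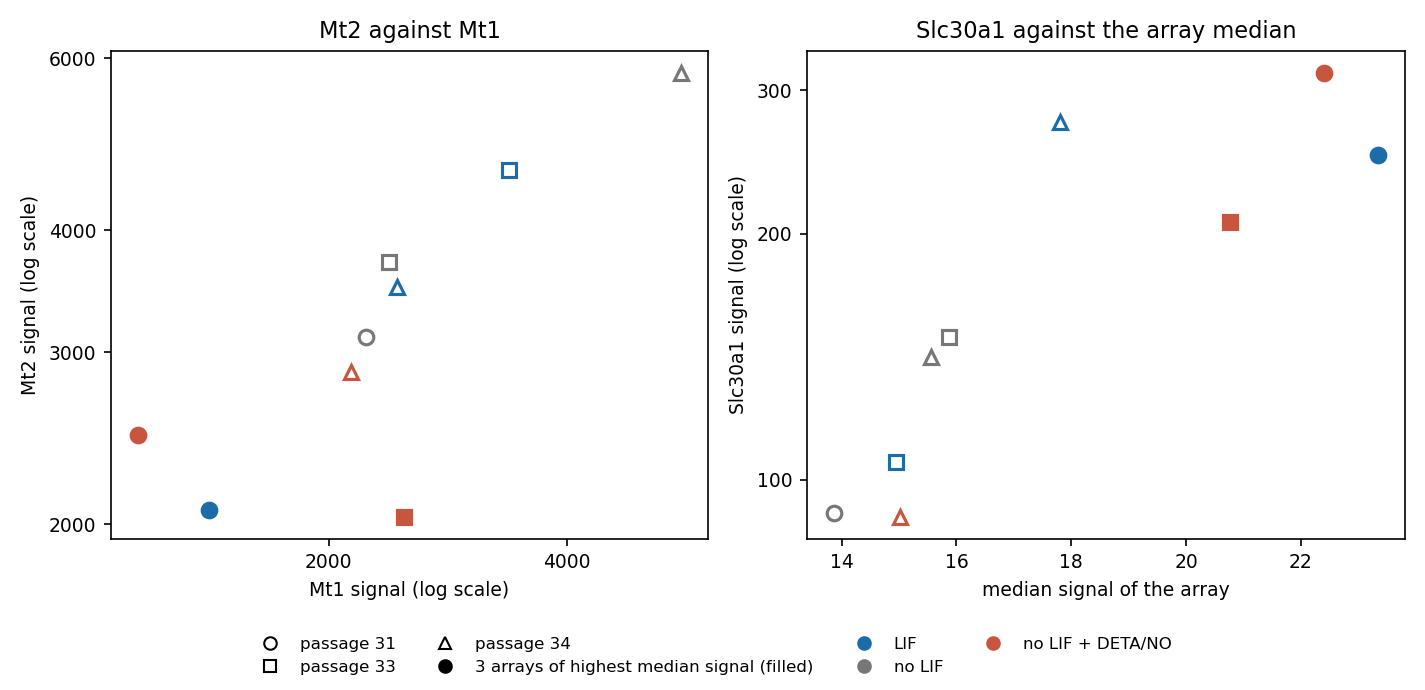
Left, Mt2 signal against Mt1 signal (both on log axes) on the 9 arrays. Right, Slc30a1 signal (log axis) against the median signal of the array; colours, shapes and filled markers are as in the plot of signals by group. Mt1 and Mt2 lie along a line with r = 0.81, apart from donor replicate 2 at 2492 and 2036, and Slc30a1 rises with the median (r = 0.88).

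The comparison of no LIF with LIF asks what 7 days without the cytokine do to these genes. Neither a member nor any other probe set was called (0% of 29811 at an adjusted p under 0.05, limma with Benjamini-Hochberg adjustment), and 1.54%, or 459, had an unadjusted p under 0.05. The log2 difference was 0.45 for Mt1 (SE 0.46, 95% interval -0.57 to 1.46) and 0.33 for Mt2 (SE 0.35, -0.44 to 1.11), with signals higher without LIF in 2 of 3 passages for both. For Slc30a1 it was -0.62 (SE 0.53, -1.80 to 0.55) and -0.53 (SE 0.43, -1.48 to 0.41) in its 2 probe sets, each lower in 2 of 3 passages. Mtf1 read -0.10 (SE 0.55) by 1418333_at and -0.87 (SE 0.38, -1.70 to -0.05) by 1428979_at, an interval that leaves out 0 before the adjustment over all probe sets and not after it (limma adjusted p = 0.973). The latter was lower without LIF in 3 of 3 passages, as 11% of probe sets were, and its groups did not overlap, as for 4.72% of probe sets in that direction. Adjusted p-values of the 8 probe sets were 0.973 to 0.989. Without both arrays whose Socs3 goes against the label, the differences were 0.92 for Mt1, 0.66 for Mt2, -0.39 and -0.99 for Mtf1 and -1.19 and -0.94 for Slc30a1. Without the alike pair, Mt1 read 0.68 and Mt2 0.53. With brightness as a block the differences were smaller for Mt1 (0.22), Mt2 (0.12) and Slc30a1 (-0.29 and -0.31), and -0.88 for Mtf1 1428979_at. Without LIF replicate 1, a brighter array with the lowest LIF signal of both metallothionein genes, Mt1 read 0.11 and Mt2 0.01, and without no LIF replicate 3, the highest array of both, they read 0.02 and 0.08. Quantile normalization moved the median of all probe sets by 0.15 and the 2 metallothionein genes to 0.21 and 0.02, and median centring moved that median by 0.25 and the 2 genes to 0.69 and 0.58.

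The comparison of the donor with no LIF shows what DETA/NO changes when LIF is absent from both groups. Both metallothionein genes read lower with the donor, and neither passed the test. For Mt2 the differences in passages 31, 33 and 34 were -0.33, -0.86 and -1.02, and the fitted difference was -0.74 (SE 0.35, 95% interval -1.51 to 0.04), a fold of 0.600 on the log2(signal + 3) scale. Its limma adjusted p was 0.929. Over all probe sets 0% were called and 5.02%, or 1498, had an unadjusted p under 0.05. Lower values in 3 of 3 passages were shared by 8.41% of probe sets, and groups without overlap in that direction by 2.52%. For Mt1 the fitted difference was -0.76 (SE 0.46, -1.77 to 0.26), from -0.95, 0.07 and -1.38 in the 3 passages (limma adjusted p = 0.929). As folds the intervals run from 0.351 to 1.02 for Mt2 and from 0.293 to 1.20 for Mt1, so a fall and no change both lie within them.

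The donor arrays are also the brighter ones in 2 of 3 cases, and the differences moved with that. With brightness as a block, Mt2 read -0.30 (SE 0.33) and Mt1 -0.30 (SE 0.48). Without no LIF replicate 3, which had the highest signal of both genes, Mt2 read -0.48 and Mt1 -0.33, and without donor replicate 1, Mt1 read -0.42. Without the alike pair Mt2 read -1.05 (limma adjusted p = 0.375, where adjusted p of Mt2 ran from 0.351, without donor replicate 3, to 1.00 over the alternatives) and Mt1 -1.11. Without both arrays that go against their Socs3 label Mt2 read -0.80 and Mt1 -0.95. Quantile normalization and median centring, which moved the median of all probe sets by -0.15 and -0.29, gave -0.44 and -1.03 for Mt2 and -0.49 and -1.05 for Mt1.

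Slc30a1 read 0.53 higher with the donor than without LIF (SE 0.53, -0.65 to 1.70) in 1436164_at and 0.35 higher (SE 0.43, -0.59 to 1.30) in 1422786_at. The second was higher in 3 of 3 passages, as 13.9% of probe sets were. With brightness as a block both changed sign, to -0.14 and -0.09. Mtf1 read 0.03 (SE 0.55) by 1418333_at and 0.61 (SE 0.38, -0.22 to 1.44) by 1428979_at, which was higher in 3 of 3 passages with groups that did not overlap, as for 6.4% of probe sets in that direction. With brightness as a block the latter read 0.62. Adjusted p-values of the 8 probe sets were 0.929 to 0.999 in limma.

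Donor and LIF arrays differ in both agents, and here too no probe set was called (0% of 29811, with 1.94%, or 578, at an unadjusted limma p under 0.05). Differences of the donor from LIF were -0.31 for Mt1 (SE 0.46), -0.40 for Mt2 (SE 0.35), -0.09 and -0.18 for Slc30a1 (SE 0.53 and 0.43) and -0.07 for Mtf1 (SE 0.55). Mt1 was lower with the donor in 3 of 3 passages, by 0.19 to 0.44, as 10.4% of probe sets were, though the groups overlapped. Probe set 1428979_at of Mtf1 was lower too, at -0.27 (SE 0.38), in 3 of 3 passages without overlap, as were 3.19% of probe sets. Without both arrays that go against their Socs3 label Mt1 read -0.02 and Mt2 -0.15. The 3 comparisons share arrays, so their values stand side by side and are no independent support of each other.

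**Figure D3:**
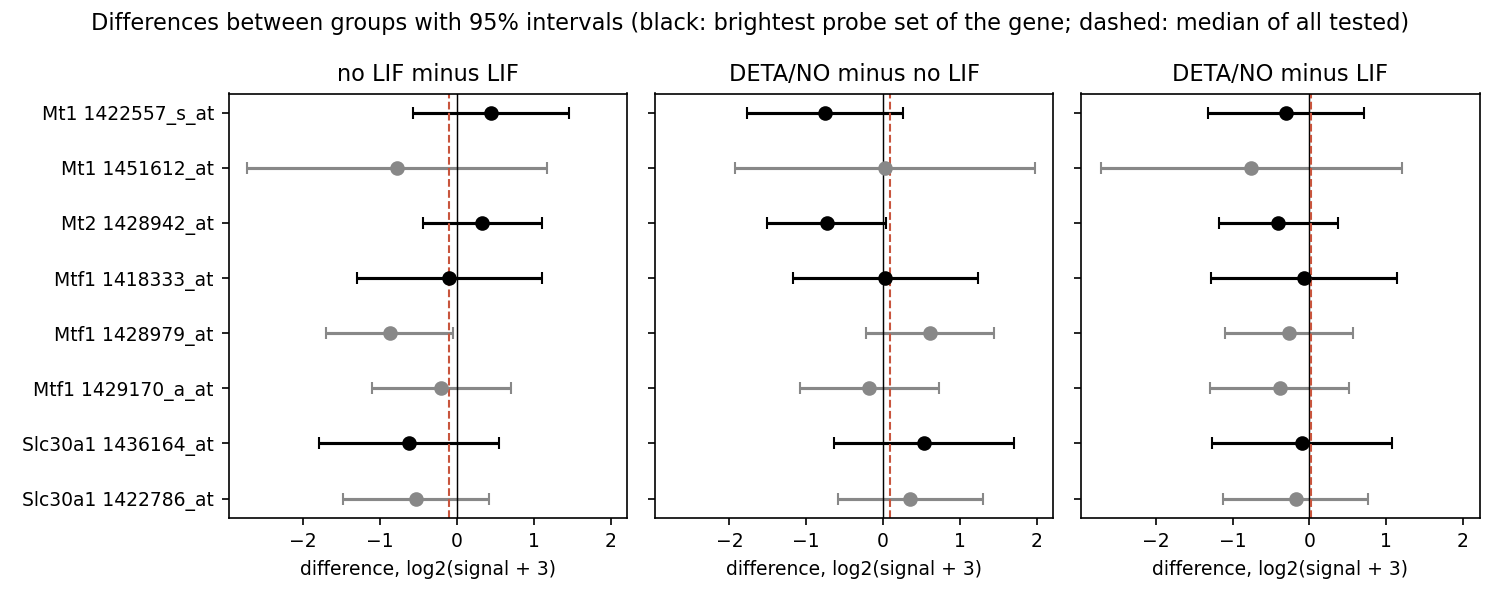
Log2 differences between groups, on the log2(signal + 3) scale with 95% intervals, for the 8 tested probe sets of Mt1, Mt2, Mtf1 and Slc30a1 in the 3 comparisons; black marks the brightest probe set of each gene and the dashed line is the median of all 29811 probe sets. Every interval includes 0 except that of Mtf1 1428979_at in no LIF against LIF, at -1.70 to -0.05.

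The genes whose signals followed each member most closely over the 9 arrays were ranked by Pearson's r among genes with a mean signal of at least 100. For Mt1 they were Dap, Sin3b, Smarcd1, Rabl6 and Gstp1, with r from 0.968 to 0.940 among 6659 genes. Gstp1 encodes a glutathione transferase, and Sin3b a scaffold of a corepressor complex. For Mt2 they were Tpd52, Eci1, Cdc25c, Spidr and Capzb, with r from 0.967 to 0.935. For Mtf1 they were Naglu, Mef2d, Pla2g6, Sidt2 and Arhgef18, with r from 0.993 to 0.977 among 6660 genes. For Slc30a1 they were Tenm4, Steap2, Stt3b, Tapt1 and Gdf3, with r from 0.966 to 0.952; Steap2 is a metalloreductase and Gdf3 a growth factor of pluripotent cells. These are the highest of some 6659 correlations over arrays that share brightness, and are given as a description. The signals of Naglu, a lysosomal enzyme, show the form of the Mtf1 pattern: 270.4, 101.3 and 93.3 on the LIF arrays, 31.5, 165.3 and 215.3 on the no LIF arrays and 182.3, 208.5 and 37.0 on the donor arrays. As for Mtf1, the lowest 2 of these values were on the alike pair.

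The other metallothionein genes were dim. Mt3, the form known from brain, read 14.9 ± 2.88 with LIF, 18.2 ± 14.5 without and 14.7 ± 8.97 with the donor (SD, n = 3). Mt4, the form of stratified epithelium, read 12.0 ± 5.94, 8.29 ± 3.23 and 8.36 ± 5.31 in the same order (SD, n = 3). All 3 groups overlapped for both genes.

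Of the other zinc exporters, the Slc30 family, 8 of 9 were bright enough to test and 0 were called in any comparison. Without LIF 2 read higher and 6 lower than with it, with a median log2 difference of -0.47 against 0.01 for all 13376 genes. With the donor 7 read higher and 1 lower than without LIF, with a median of 0.27 against -0.02. Of all 13376 genes, 50.4% read higher without LIF than with it, and 47.6% read higher with the donor than without LIF. These shares and medians of all genes also stand beside the counts of the lists that follow. Median centring, which moved the median of all genes to -0.32, gave 4 higher and 4 lower (median -0.03), quantile normalization gave 6 and 2 (median 0.15), and brightness as a block gave 5 and 3 (median 0.25). For no LIF against LIF the block gave 1 higher and 7 lower, with a median of -0.20. Slc30a7, which loads zinc into the early secretory pathway, read 105.1, 77.9 and 92.6 on the LIF arrays, 74.6, 72.8 and 62.5 on the no LIF arrays and 138.0, 157.6 and 90.2 on the donor arrays. Its donor arrays lay above its no LIF arrays, as for 6.4% of probe sets (difference 0.82, SE 0.36, limma adjusted p = 0.929). For this gene the brighter arrays again stood apart, at 105.1 to 157.6 against 62.5 to 92.6, as for 14.6% of probe sets in that direction. Slc30a4, a vesicular exporter, read 0.97 higher with the donor than without LIF (SE 0.54). Slc30a5 and Slc30a6, whose products pair to fill secretory enzymes with zinc, read 0.06 and 0.59. Slc30a9, among the 3 brightest exporters, was the one that read lower with the donor, at -0.17, and it read 0.36 higher without LIF than with it (SE 0.55 for both). Summed over the 9 exporters, the brighter arrays gave 2020.5 to 2197 and the others 1248 to 1876.

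Of 14 zinc importers, the Slc39 family, 11 were tested and 0 called. Without LIF 1 read higher and 10 lower than with it (median -0.30), and with the donor 6 read higher and 5 lower than without LIF (median 0.20). Under median centring these counts became 5 and 6 (median -0.05) and 5 and 6 (median -0.09), and with brightness as a block 5 and 6 (median -0.07) and 2 and 9 (median -0.29). Slc39a10, the brightest of them, read -0.24 and 0.35 in these comparisons (SE 0.33), and Slc39a14, which also carries iron and manganese, read -0.71 and 0.61 (SE 0.50). Slc39a4, the importer of the gut lining, read -0.32 and -0.19 (SE 0.73). Importer signals summed to between 2175 and 3747 on the 6 dimmer arrays and between 3720.0 and 4681 on the brighter ones.

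Other targets and partners of MTF1 were split in direction, and 0 were called. Of 8 tested, 5 read higher and 3 lower without LIF than with it (median 0.12), and 3 read higher and 5 lower with the donor than without LIF (median -0.20, or 5 higher and 3 lower with a median of 0.41 with brightness as a block). Ndrg1, a stress gene that metals and hypoxia induce, read 339, 240 and 305 on the LIF arrays, 90.7, 629 and 569 on the no LIF arrays and 42.8, 190 and 123 on the donor arrays. The donor arrays lay below all LIF arrays, as for 3.19% of probe sets. They overlapped with the no LIF arrays, where the difference was -1.64 (SE 0.73, limma adjusted p = 0.929). Selenow, a selenoprotein gene, read 0.90 and -0.73 in the first 2 comparisons (SE 0.68), and Csrp1 read 0.43 and -0.35 (SE 0.67). Of 7 tested copper handling genes, 5 read higher without LIF (median 0.21) and 6 read lower with the donor than without LIF (median -0.26), with 0 called. Without both arrays that go against their Socs3 label the first count became 3 higher and 4 lower (median -0.18). With brightness as a block the donor count became 2 higher and 5 lower (median -0.25). Atox1, the copper chaperone, read 237, 564 and 882 on the LIF arrays, 1361, 676 and 748 on the no LIF arrays and 170, 301 and 1354 on the donor arrays. Its 3 lowest values were those of the brighter arrays, as for 7.27% of probe sets, and its 2 highest those of the alike pair.

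**Figure D4:**
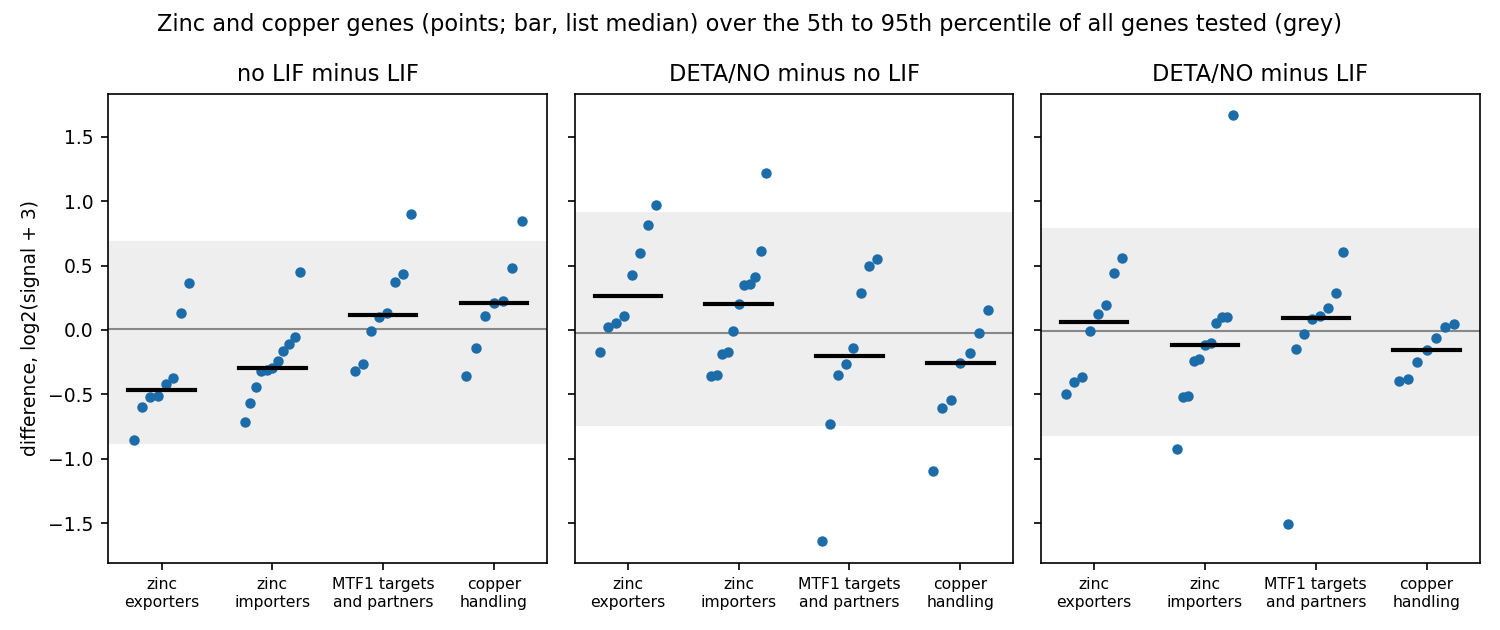
Log2 differences, on the log2(signal + 3) scale, of the tested genes of 4 lists (zinc exporters other than Slc30a1, zinc importers, other MTF1 targets and partners, copper handling genes) in the 3 comparisons; points are genes, black bars list medians, and the grey band runs from the 5th to the 95th percentile of all 13376 genes tested. Exporter medians are -0.47, 0.27 and 0.06, and copper medians 0.21, -0.26 and -0.15.

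Other inducers of metallothionein genes were read through their own targets. Of 12 LIF and STAT3 targets, 11 read lower without LIF than with it (median -0.86) and 8 read lower with the donor than without LIF (median -0.36), with 0 called. Without both arrays that go against their Socs3 label, the latter became 8 higher and 4 lower (median 0.36). Socs3 is itself among the 12, and these arrays were left out by its signal, so this count is no separate reading of the targets. Of 7 tested NRF2 targets, which answer oxidative stress, 5 read higher without LIF (median 0.13) and 5 read lower with the donor than without LIF (median -0.47). With brightness as a block the donor counts became 3 higher and 4 lower (median -0.41). Hmox1, heme oxygenase, read 162, 247 and 239 on the LIF arrays, 179, 187 and 206 on the no LIF arrays and 95.5, 105.2 and 136.7 on the donor arrays. For Hmox1 all donor arrays lay below all no LIF arrays, as for 2.52% of probe sets, and below all LIF arrays, as for 3.19%. The difference from no LIF was -0.76 (SE 0.34, limma adjusted p = 0.929). In the same comparison the brighter NRF2 targets Txnrd1 and Gclm read -0.74 (SE 0.57) and 0.04 (SE 0.36). Glucocorticoid response genes had medians of 0.04 and 0.02 over 8 tested, and Klf9 among them read 0.89 higher with the donor than without LIF (SE 0.40, limma adjusted p = 0.929). Every brighter array gave Klf9 a signal of at least 2421, and no other array exceeded 2203, as for 14.6% of probe sets in that direction. Donor replicate 3, which is not brighter, read 1302, between the lowest and highest no LIF signals of 1253 and 1662. Klf9 had 6 other tested probe sets, which are not given here.

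Markers of cell types were read as summed signals. The sums of parietal endoderm, visceral endoderm and fibroblast markers overlapped between all 3 groups. Parietal endoderm markers summed to 5192 to 16622 on LIF arrays, 2430 to 7343 on no LIF arrays and 2371 to 5261 on donor arrays, with 9 of 10 at or above the array median on all arrays. The high end is LIF replicate 3 alone, since the other LIF arrays gave 7249 and 5192. All 9 that were tested read lower without LIF (median -0.94), also under both other scalings, and 0 were called. Without LIF replicate 3 the count became 1 higher and 8 lower (median -0.42). Visceral endoderm markers summed to 248 to 1238, 170 to 573 and 172 to 396 in the same order, with the highest sum again on LIF replicate 3, as for the fibroblast markers. Fibroblast markers summed to 138 to 632, 104 to 254 and 101 to 194. Of 8, 2 lay at or above the median on all arrays, Thy1 with signals up to 94.5 and Pdgfra up to 509. Dcn and Lum stayed at or under 12.8. Embryonic stem cell markers summed to 18082 to 25525 with LIF, 20810 to 29591 without and 14943 to 19525 with the donor. Their donor sums lay below all no LIF sums and overlapped with LIF. All 10 read lower with the donor than without LIF (median -0.26), as did 52.4% of all genes. The count was 8 of 10 under quantile normalization (median -0.15). It was 7 of 10 with brightness as a block (median -0.41), and also without both arrays that go against their Socs3 label (median -0.24). The part of these markers in the signals of the 4 genes was not tested.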

How the data were processed

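The deposited values are linear signal intensities from Affymetrix Mouse Genome 430 2.0 arrays, which the authors scaled globally in GeneChip Operating System v1.4.0.036, per the labels' design text; the submitters' processing notes name MAS5. Signals were taken as log2(signal + 3). Of 45101 probe sets, 64 controls were left out, and the 29811 tested reached the 40th percentile of an array's signals on at least 3 of 9 arrays. Symbols come from the platform annotation, 34945 probe sets with 1, 932 with several and 9160 with none, and only single symbols were used; the brightest tested probe set stood for a gene. Differences come from 1 fit of group means to all 9 arrays in limma 3.58.1 under R 4.3.3, with eBayes variances following mean intensity. Two-sided p-values took the Benjamini-Hochberg adjustment across the 29811, at a threshold of 0.05. The fit was tested on simulated data with the spread observed, for no LIF minus LIF. It called 0% of 50 probe sets changed by 1 in log2, 28% of 50 changed by 2 and 60% of 50 changed by 3. Where 0 probe sets are called, a change of 1 is thus not told apart from none. A fold on this scale understates the change of dim probe sets. Correlations used exact two-sided permutation tests over the arrays, without regard to group or passage. The 4 genes and the lists were chosen with earlier results of these data known. Named genes were drawn from the members, the 3 brightest of a list, the ones with the smallest p in it, and the 5 genes most like each member. Not every gene under this rule is given, and Nanog is named outside it. Afp, Apoa1, Ttr, Dcn and Lum, too dim to test, are named as defining markers. The 300-base, antioxidant response element and STAT searches, and the list counts under other settings, were added after the data were seen. Scanner files and detection calls were not used here. The number of arrays, 3 a group, limits the precision.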

Additional observations from a re-analysis of the deposited data

How the results depend on the processing

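Across 21 alternative settings 0 probe sets were called in any of the 3 comparisons, and the smallest adjusted p of a member was 0.351, in limma. Of 498 alternative values for the 24 member differences, 458 kept their sign and 40 did not, and 12 differences kept it throughout, among them Mt1 without LIF against LIF (0.02 to 0.74 when each array was left out in turn), Mt1 with the donor against no LIF (-0.99 to -0.33) and all 3 of Mt2 (0.01 to 0.59 for no LIF minus LIF, lowest without LIF replicate 1; -0.93 to -0.48 for donor minus no LIF; -0.72 to -0.15 for donor minus LIF, smallest without LIF replicate 2). No LIF minus LIF turned for Mtf1 1418333_at with quantile normalization (0.0576), median centring (0.15), the brightness block (0.26), without the alike pair (0.40) and in the range over single arrays left out (-0.44 to 0.40), and for 1429170_a_at (0.0459 and 0.0411 with the 2 scalings; -0.382 to 0.0182). Donor minus no LIF turned for Mtf1 1418333_at (quantile -0.12, centring -0.27, brightness -0.69, alike pair -0.0271; range -0.47 to 0.47), Mtf1 1429170_a_at (range -0.404 to 0.0126), Slc30a1 1436164_at (brightness -0.14) and 1422786_at (brightness -0.0865), and Mt1 1451612_at (pseudocount 1 -0.14, quantile -0.27, centring -0.27, brightness -1.33; range -0.86 to 1.16). Donor minus LIF turned for Mt1 1422557_s_at (range -0.65 to 0.0260), Mt1 1451612_at (alike pair 0.38; range -1.64 to 0.38), Mtf1 1418333_at (0.37; -0.34 to 0.37), Slc30a1 1436164_at (0.40; -0.53 to 0.40) and 1422786_at (0.0687; -0.564 to 0.0687). The causes were not tested. Same-numbered arrays did not deviate together (r -0.60 to 0.65 over 9 pairs, 3 over 0.1, and 3 of 9 arrays correlated best with their own number). The titles tie the number to the culture passage, and no label says whether the arrays of a passage shared a culture. With the replicate block 0 probe sets were called in each comparison, and Mt2 with the donor against no LIF read -0.74 (SE 0.31, adjusted p 0.916).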
